A study of Mus musculus with 4 samples.

Results

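Type I interferon response genes are the transcripts that cells raise when interferon alpha or beta binds its receptor, and 39 of them were followed in regulatory T cells (Tregs) with and without Csnk2b. The 39 genes were taken from a given list of sensors, transcription factors, antiviral effectors and feedback genes, and each was looked up by symbol among 28032 features that had an exon length, of 37583 listed. All 39 were found. The cells were CD4+FoxP3+ Tregs sorted from C57BL/6 mice aged 8 weeks, either wild type (WT) or Csnk2b-/-, called Csnk2b-deficient here. Csnk2b encodes the beta subunit, the regulatory part of the kinase CK2. Each genotype had 1 library of spleen Tregs (replicate 1) and 1 library of tracheal lymph node Tregs (replicate 2). The labels name no Cre driver or promoter for the deletion, and they do not say whether a library came from 1 animal or a pool.

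Type I interferons signal through the receptor chains Ifnar1 and Ifnar2 and the kinases Jak1 and Tyk2. These phosphorylate Stat2, which acts with Irf9 in the complex ISGF3, and ISGF3 binds a promoter element called the ISRE. Most cells transcribe a low level of these genes without infection, through weak constitutive interferon signalling. In Tregs, interferon signalling is known to affect proliferation and suppressive function, with different effects in different settings.

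The libraries held 4737814 to 6750695 exon reads, with 12157 to 14335 genes detected in the lymph node libraries and 14962 to 15515 in the spleen libraries. The 39 genes took 0.488% of exon reads in WT spleen, 0.476% in Csnk2b-deficient spleen, 0.605% in WT lymph node and 0.474% in Csnk2b-deficient lymph node. Csnk2b itself had 649 reads in WT and 148 in Csnk2b-deficient cells of the spleen, and 667 and 283 reads in those of the lymph node, so both libraries labelled deficient had fewer. All 6 markers of Tregs and T cells (Cd3e, Cd4, Foxp3, Il2ra, Ctla4, Ikzf2) had reads in every library. Foxp3 was lower in the Csnk2b-deficient libraries, at 374 compared with 811 CPM (exon reads scaled to a common library size by TMM) in spleen and 123 compared with 570 CPM in lymph node Tregs, and 25.9% of its reads were uniquely placed.

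Markers of other cell types were also summed. The 6 listed macrophage and monocyte markers summed to 10.4 CPM in WT spleen, 6.57 in Csnk2b-deficient spleen, 46.2 in WT lymph node and 298 in Csnk2b-deficient lymph node, where Lyz2 alone gave 283. The 5 plasmacytoid dendritic cell markers, of the cells that make most type I interferon, summed to 7.61, 3.11, 24.0 and 11.4 CPM in the same order, and Klk1 had 0 reads in all 4 libraries. The 5 B cell markers summed to 15.6, 17.0, 148 and 98.7 CPM, and the 5 dendritic cell markers to 2.92, 7.44, 19.3 and 20.8 CPM. The 4 neutrophil markers had 0 reads in all 4 libraries, and the 2 CD8 T cell markers summed to 16.4, 12.5, 52.5 and 39.02 CPM. The 2 erythroid markers summed to 0.380, 0.346, 41.8 and 3.95 CPM. Of the 3 NK cell markers, Klrb1c had 4.82, 2.77, 1.22 and 7.02 CPM, and Ncr1 and Klra8 had 0 reads in all 4 libraries. The Csnk2b-deficient lymph node library was thus below its WT partner in the B cell, plasmacytoid, CD8 and erythroid sums and above it in the macrophage, dendritic cell and NK sums. Siglech, a defining marker of plasmacytoid cells, did not follow its list's sum, with 2, 0, 0 and 14 reads. The part of these cells in the results below was not tested.

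Fewer reads of this list were found in Csnk2b-deficient Tregs mainly in the lymph node, and 5 members held the larger part of the net difference. The summed level of the 39 genes was 4181 CPM in WT and 4013 CPM in Csnk2b-deficient spleen Tregs, and 7002 and 5723 CPM in lymph node Tregs. Usp18, Ifit3, Ifit1, Oas2 and Ifi27l2a, the 5 members with the smallest p, summed to 295.5 and 191.7 CPM in spleen and to 1676 and 850.0 CPM in lymph node Tregs. The other 34 summed to 3885 and 3821 CPM in spleen and to 5327 and 4873 CPM in lymph node Tregs. These sums are net values, in which falls of some members were partly offset by rises of others. The 5 genes were chosen by that p, so their sum describes where part of the net difference lay and supports nothing further. In bulk RNA, fewer cells with a transcript and less transcript per cell cannot be told apart.

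**Figure D1:**
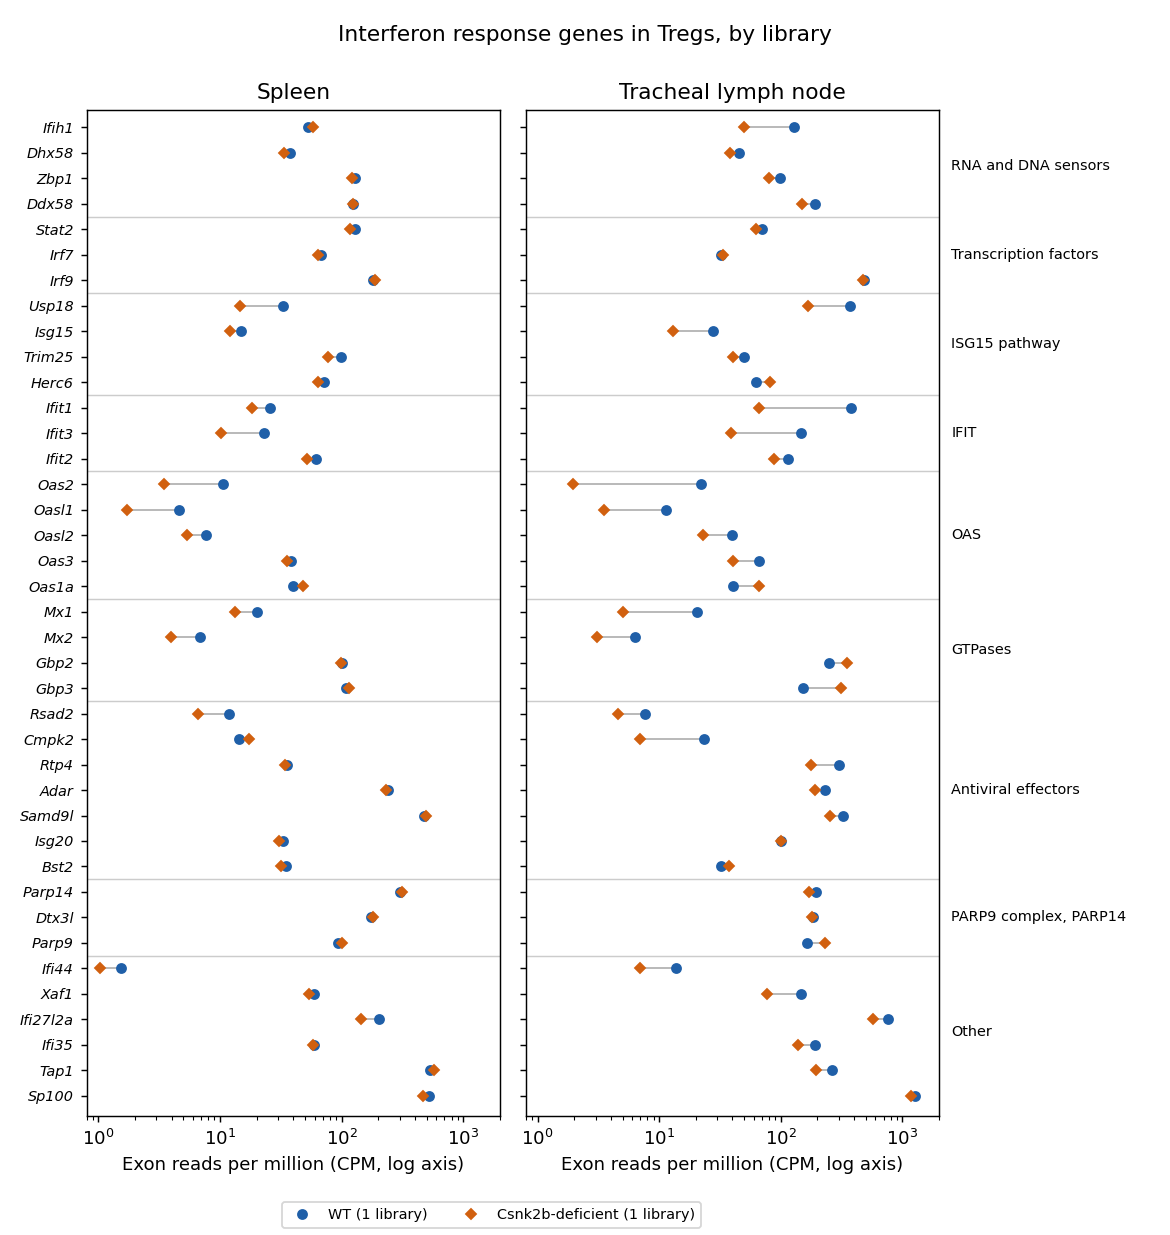
Level of each of the 39 interferon response genes in scaled exon reads (CPM, log axis) in the spleen libraries (left) and the tracheal lymph node libraries (right), with WT as circles and Csnk2b-deficient as diamonds, 1 library each, grouped by role. Oas2, Ifit1, Mx1 and Ifit3 show the widest gaps in the lymph node, with WT to the right, while Gbp3 shows the opposite order there.

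No member passed the edgeR quasi-likelihood test at a Benjamini-Hochberg adjusted p below 0.05. Over all 11113 genes tested, 0.018% passed as lower and 0.126% as higher in Csnk2b-deficient Tregs. At an unadjusted p below 0.05, 5 members (12.8%) were lower, compared with 2.2% of all genes, and 0 were higher, compared with 2.67%. With 1 residual degree of freedom, the p-values measure how unlike the 2 tissue pairs were, moderated across genes, and not the spread between animals. Other fits of the same counts gave some calls. The DESeq2 Wald test called Ifit1 and Usp18 lower, beside 0.144% of all genes. limma-voom called Ifit1, Ifit3 and Usp18, beside 0.198% of all genes, and edgeR with no filter except 0 reads called the same 3, beside 0.182%.

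The fitted log2 fold changes of the 39 genes ran from -2.50 to 0.57 with a median of -0.25, compared with 0.0087 over all genes tested. Of the 39, 31 were below 0, compared with 5473 of all 11113 genes. The ratio was below 1 in both pairs for 25 members (64.1%), compared with 29.2% of all genes, and above 1 in both pairs for 3 (7.69%), compared with 27.7%. The 3 were Oas1a, Parp9 and Gbp3. Both WT libraries were above both Csnk2b-deficient libraries for 6 members (15.4%), namely Isg15, Mx1, Mx2, Oas2, Oasl1 and Rsad2, compared with 7.08% of all genes. The reverse held for Oas1a (2.56% of members), compared with 7.18% of all genes. Members of 1 induced set vary together, so these counts are not 39 separate observations.

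The ratios were farther from 1 in the lymph node pair, for the 39 genes and also for all genes tested. The difference between the tissues was not tested. In the spleen pair the median log2 ratio of the 39 genes was -0.12, compared with -0.021 over all genes. There, 29 members were below 0, compared with 5947 of all 11113 genes. In the lymph node pair the median was -0.38, compared with 0.030, and 32 members were below 0, compared with 5324 of all 11113 genes. More than 1.5-fold lower in the spleen were 7 members (17.9%), compared with 5.27% of all genes, and 0 were as much higher, compared with 5.98%. In the lymph node 16 members (41%) were more than 1.5-fold lower, compared with 20.4% of all genes. There, 2 members (Gbp3 and Oas1a, 5.13%) were as much higher, compared with 25.8%. The same 7 genes that passed 1.5-fold in the spleen also passed it in the lymph node: Usp18, Ifit3, Oas2, Oasl1, Mx1, Mx2 and Rsad2 (17.9% of members, compared with 2.11% of all genes). Across the 39 genes the ratios of the 2 pairs correlated at a Pearson r of 0.67 and a Spearman rho of 0.52, compared with 0.24 and 0.20 over all genes, as a description of genes that are not independent.

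**Figure D2:**
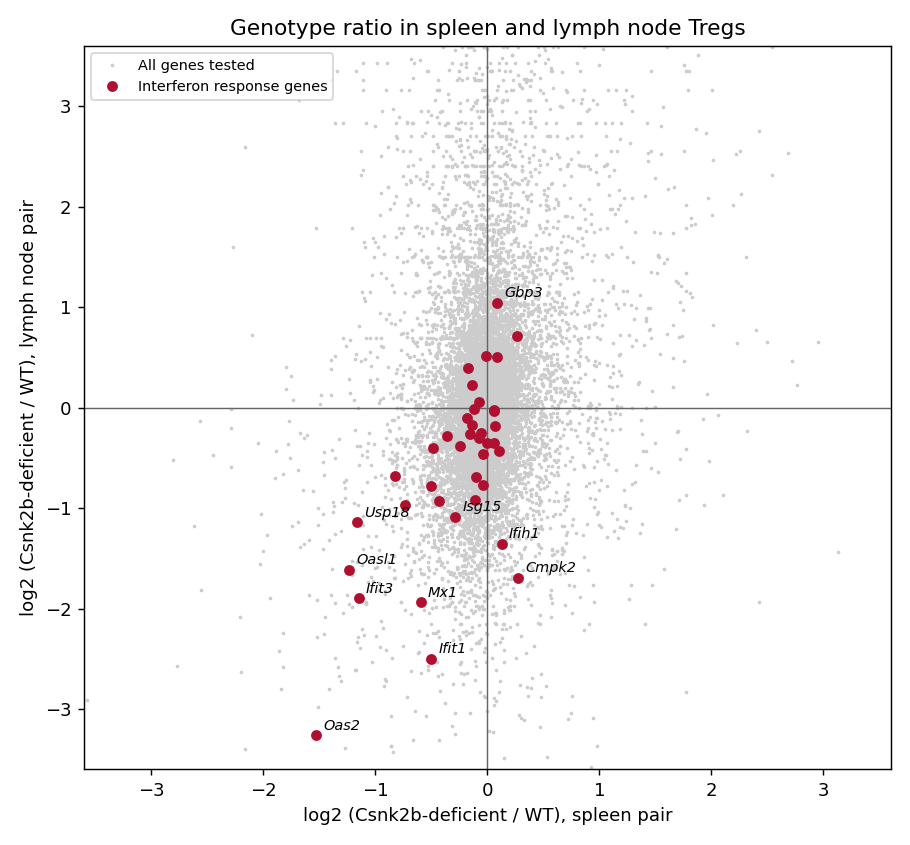
Each point is 1 gene, with the log2 ratio of Csnk2b-deficient to WT Tregs in the spleen pair (x axis) and in the lymph node pair (y axis), for all 11113 genes tested (grey, 233 outside the axes) and the 39 interferon response genes (red). Most red points lie in the lower left quadrant, many of them near the origin, and they stretch along the lymph node axis, with Oas2 farthest out.

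In what follows, values of a tissue are given for WT first and Csnk2b-deficient second. Usp18 and Isg15 belong to the ISG15 pathway, in which Isg15 is a ubiquitin-like protein attached to others, Herc6 is its ligase in mice, and Usp18 removes it and also blocks signalling at the receptor chain Ifnar2. Usp18 (chr6:121195924-121220934, mm9) had 260 reads in WT spleen Tregs and 84 in deficient ones, or 33.0 and 14.5 CPM. In the lymph node it had 1510 and 763 reads, or 369 and 167 CPM. Both deficient libraries were below the WT library of their tissue, and the spleen and lymph node levels did not meet. The ratio of deficient to WT was 0.441 in the spleen (exact binomial 95% interval 0.340 to 0.566, counting error only) and 0.453 in the lymph node (0.415 to 0.495). The fit gave a log2 fold change of -1.16 ± 0.23 (SE, n = 2 per genotype, edgeR adjusted p = 0.134, unadjusted p = 0.000362), with -1.16 in spleen and -1.14 in lymph node Tregs. Over 8 alternative fits its adjusted p ran from 0.00169 to 1.00.

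Other ISG15 pathway genes differed less. Isg15 had 117 and 70 reads in WT and Csnk2b-deficient spleen and 114 and 59 in the lymph node, or 14.8 and 12.1 CPM and 27.9 and 12.9 CPM. Both WT libraries were higher, by a wide margin only in the lymph node (ratio 0.464, 95% interval 0.333 to 0.641), and the spleen interval of 0.598 to 1.11 included 1. Trim25, a ubiquitin ligase that activates the RNA sensor Ddx58, had 99.2 and 77.3 CPM in spleen and 49.6 and 40.8 in lymph node Tregs. Herc6 was the exception in direction, at 71.9 and 63.7 CPM in spleen and 62.1 and 81.8 in lymph node Tregs, so the pairs pointed opposite ways.

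Ifit1, Ifit2 and Ifit3 encode cytoplasmic proteins that bind viral RNA ends and are among the most strongly interferon-induced genes. All 3 were lower in both Csnk2b-deficient libraries, and Ifit1 and Ifit3 had the larger differences. Ifit1 (chr19:34715361-34724499, mm9) had 204 and 105 reads in WT and deficient spleen and 1542 and 303 in the lymph node, or 25.9 and 18.2 CPM and 377 and 66.4 CPM. WT lymph node Tregs stood far above the other 3 libraries. The ratio was 0.702 (95% interval 0.549 to 0.893) in spleen and 0.176 (0.155 to 0.199) in lymph node Tregs. The log2 fold change was -1.58 ± 0.42 (SE, edgeR adjusted p = 0.455, unadjusted p = 0.00393) with pair values of -0.50 and -2.50, so its size rests on the lymph node pair. Over the alternative fits its adjusted p ran from 1.90e-05 to 1.00.

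Ifit3 (chr19:34658021-34663221, mm9) had 182 and 59 reads in spleen and 601 and 179 in lymph node Tregs, or 23.1 and 10.2 CPM and 147 and 39.2 CPM. The ratio was 0.442 (0.324 to 0.596) in spleen and 0.267 (0.225 to 0.316) in lymph node Tregs. Its log2 fold change was -1.56 ± 0.33 (SE, edgeR adjusted p = 0.200), with -1.15 and -1.89 in the pairs, and the adjusted p ran from 0.00204 to 1.00 over the alternative fits. Only 42.8% of Ifit3 reads were uniquely placed (a near copy of the gene, Ifit3b, exists in mice), and the unique reads numbered 77, 32, 266 and 62 in the same order. Ifit2 had 61.6 and 51.9 CPM in spleen and 115 and 87.9 CPM in lymph node Tregs, a smaller gap (log2 fold change -0.32 ± 0.25).

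The ISRE that ISGF3 binds can be looked for in the RefSeq promoters of the members, which reach from 250 bases before to 50 after a start site (GRCm38.p6, a different build from the mm9 positions of the counted genes). Promoters were in the table for 29 of the 39 members, and Rtp4, Zbp1, Parp9, Parp14, Mx1, Ifi27l2a, Usp18, Dhx58, Mx2 and Oas2 were not in it. The ISRE core searched was GAAANNGAAA on either strand, in overlapping matches. It was found in 12 of 29 members (41.4%), compared with 1079 of 27025 genes (3.99%). In the 250 bases before the start alone, 10 members (34.5%) held it, compared with 3.46% of genes. The GAS core TTCNNNGAA, an element found in promoters that respond to interferon gamma, was found in 6 members (20.7%), compared with 9.55% of genes. A match is a description of letters and not a bound site.

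The upstream stretches of 5 members show how the core lies in genes with different genotype ratios. Ifit1 and Ifit3 were lower in both pairs with larger differences, Isg15 was lower in both with smaller differences, and Gbp3 and Oas1a were higher in both. Each is 170 bases long, 5′ to 3′ on the gene's strand, and ends 1 base before the start. Capitals mark the ISRE core on either strand. Ifit1 is chr19:34640719-34640888 (plus strand), Ifit3 chr19:34583359-34583528 (plus), Isg15 chr4:156200819-156200988 (minus), Gbp3 chr3:142559874-142560043 (plus, 1 of 2 starts) and Oas1a chr5:120907526-120907695 (minus).
Ifit1: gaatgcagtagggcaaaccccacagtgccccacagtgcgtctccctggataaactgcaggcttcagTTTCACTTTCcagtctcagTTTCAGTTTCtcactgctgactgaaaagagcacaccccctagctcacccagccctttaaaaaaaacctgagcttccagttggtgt
Ifit3: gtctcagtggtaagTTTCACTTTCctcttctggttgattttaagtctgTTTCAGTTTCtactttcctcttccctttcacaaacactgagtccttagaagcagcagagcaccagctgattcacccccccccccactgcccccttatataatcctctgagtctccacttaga
Isg15: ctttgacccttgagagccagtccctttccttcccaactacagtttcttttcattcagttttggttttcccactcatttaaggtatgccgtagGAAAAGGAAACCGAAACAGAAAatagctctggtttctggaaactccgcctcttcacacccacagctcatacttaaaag
Gbp3: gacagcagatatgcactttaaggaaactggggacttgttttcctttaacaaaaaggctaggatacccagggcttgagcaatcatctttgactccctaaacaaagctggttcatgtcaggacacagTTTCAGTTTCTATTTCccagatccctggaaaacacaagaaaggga
Oas1a: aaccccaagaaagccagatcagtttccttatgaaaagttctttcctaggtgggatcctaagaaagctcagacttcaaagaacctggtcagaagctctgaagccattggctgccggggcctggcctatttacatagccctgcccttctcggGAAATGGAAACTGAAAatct
The cores began at -104 and -85 in Ifit1 and at -156 and -122 in Ifit3, as separate matches. In Isg15 (-78, -72 and -66), Gbp3 (-45 and -39) and Oas1a (-20 and -14) the matches overlapped in a single run. Of the 29 genes in the table, those with the core included both the lowest and the highest fold change. The 12 members with it had a median log2 fold change of -0.29 (range -1.58 to 0.57), and 7 were lower in both pairs. The 17 members without it had a median of -0.16 (range -1.55 to 0.11), and 10 were lower in both pairs.

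The OAS genes encode enzymes that make 2'-5' oligoadenylate after binding double-stranded RNA, and the OAS-like genes Oasl1 and Oasl2 belong to the same family. Of the 5 members, 4 were lower in both Csnk2b-deficient libraries and Oas1a was higher in both. Oas2 (chr5:121180342-121199862, mm9) had 84 and 20 reads in WT and deficient spleen and 90 and 9 in the lymph node, or 10.7 and 3.46 CPM and 22.0 and 1.97 CPM. Both WT libraries were above both deficient libraries. The ratio was 0.325 (95% interval 0.189 to 0.534) in spleen and 0.0897 (0.0397 to 0.178) in lymph node Tregs, and the log2 fold change of -2.50 ± 0.82 (SE, edgeR adjusted p = 0.716, range 0.247 to 1.00 over the alternative fits) was the lowest of the 39. It rests on few reads.

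Oasl1 showed the same order with fewer reads, 36 and 10 in spleen and 47 and 16 in lymph node Tregs (log2 fold change -1.55 ± 0.99). Oasl2 had 7.74 and 5.36 CPM in spleen and 39.4 and 22.8 in lymph node Tregs, and Oas3 had 38.2 and 35.6 CPM and 66.0 and 40.8 CPM. Both were lower in the deficient library of each pair while the genotypes overlapped across tissues. Oas1a went the other way, with 315 and 278 reads in spleen and 164 and 301 in lymph node Tregs, or 40.0 and 48.1 CPM and 40.1 and 66.0 CPM. Both deficient libraries were above both WT libraries, at a ratio of 1.20 (95% interval 1.02 to 1.42) and 1.65 (1.36 to 2.00), with 44.5% of its reads uniquely placed in a family of close copies.

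Mx1, Mx2, Gbp2 and Gbp3 encode large GTPases that act on viruses and intracellular pathogens, and the guanylate-binding proteins also respond strongly to interferon gamma. The Mx and Gbp genes differed in direction. Mx1 had 160 and 77 reads in spleen and 83 and 23 in lymph node Tregs, or 20.3 and 13.3 CPM and 20.3 and 5.04 CPM. Both WT libraries stood above both deficient libraries, and the log2 fold change was -1.27 ± 0.59 (SE, edgeR adjusted p = 0.890). Mx2, at 54, 23, 26 and 14 reads, kept the same order (-0.91 ± 0.98). Gbp3 had 109 and 116 CPM in spleen and 151 and 312 CPM in lymph node Tregs, a log2 fold change of 0.57 ± 0.26 (SE, edgeR adjusted p = 0.890), the highest of the 39. Its ratio was 1.06 (95% interval 0.956 to 1.17) in spleen and 2.07 (1.88 to 2.28) in lymph node Tregs, so the difference lay in the lymph node library. Gbp2 had 99.9 and 99.3 CPM in spleen and 247 and 353 CPM in lymph node Tregs.

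The RNA sensors Ddx58 (RIG-I), Ifih1 (MDA5) and Dhx58 (LGP2) and the nucleic acid sensor Zbp1 feed the pathway that produces interferon. Ifih1 had 417 and 334 reads in spleen and 527 and 229 in lymph node Tregs, or 52.9 and 57.8 CPM and 129 and 50.2 CPM. WT lymph node Tregs stood above the other 3 libraries, which lay close together. The ratio was 1.09 (95% interval 0.943 to 1.26) in spleen and 0.390 (0.332 to 0.456) in lymph node Tregs, with a log2 fold change of -0.61 ± 0.36 (SE, edgeR adjusted p = 0.890). Ddx58 had 125 and 124 CPM in spleen and 192 and 150 CPM in lymph node Tregs. Zbp1 and Dhx58 were lower in both pairs, with log2 fold changes of -0.19 ± 0.24 and -0.21 ± 0.34.

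The transcription factors of the pathway showed small differences. Irf9, the DNA-binding part of ISGF3, had 180 and 187 CPM in the spleen and 483 and 476 CPM in lymph node Tregs (log2 fold change 0.02 ± 0.19). Stat2, its partner, had 129 and 117 CPM in spleen and 70.6 and 62.5 CPM in lymph node Tregs (-0.16 ± 0.24). Irf7, which amplifies interferon production, had 67.1 and 63.7 CPM and 32.0 and 33.3 CPM (-0.01 ± 0.31). These errors allow moderate changes in either direction, so the test does not show that the factors were alike.

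Among the antiviral effectors, Rsad2 (viperin, which makes a chain-terminating nucleotide) and its genomic neighbour Cmpk2 (a mitochondrial nucleotide kinase) had low levels. Rsad2 had 94 and 38 reads in spleen and 31 and 21 in lymph node Tregs, with both WT libraries higher. Cmpk2 had 112 and 100 reads in spleen and 96 and 32 in lymph node Tregs, so its pairs pointed opposite ways, with ratios of 1.22 (0.920 to 1.61) and 0.299 (0.194 to 0.450). Rtp4, an inhibitor of flavivirus replication, had 278 and 198 reads in spleen and 1229 and 801 in lymph node Tregs, or 35.3 and 34.3 CPM and 300.4 and 176 CPM. Its difference lay mainly in the lymph node pair (ratio 0.971 with a 95% interval of 0.805 to 1.17 in spleen and 0.585 with 0.534 to 0.640 in lymph node Tregs), and its log2 fold change was -0.43 ± 0.25 (SE, edgeR adjusted p = 0.890).

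The remaining effectors were closer to even. Bst2, the tether that holds budding virus at the cell surface, had 35.0 and 31.8 CPM in spleen and 32.0 and 37.5 CPM in lymph node Tregs. Isg20, an RNA exonuclease, had 33.1 and 30.4 CPM and 101 and 100.4 CPM. Samd9l, a translation inhibitor, had 474 and 493 CPM and 324 and 254 CPM. Adar, the RNA-editing enzyme that keeps cellular double-stranded RNA from the sensors, had 241 and 231 CPM in spleen and 230 and 192 CPM in lymph node Tregs. The log2 fold changes of these 4 lay between -0.16 and 0.04, within 1 SE of 0 by edgeR.

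Parp9 and Dtx3l form a complex that modifies histones and viral proteins after interferon, and Parp14 is a related ADP-ribosyltransferase. None of the 3 was lower in the spleen pair. Parp9 had 93.7 and 99.8 CPM in spleen and 164 and 233 CPM in lymph node Tregs, and it overlaps Dtx3l, with 59.4% of its reads uniquely placed. Dtx3l had 174 and 182 CPM and 185 and 181 CPM, and Parp14 had 302 and 316 CPM and 194 and 171 CPM. Strand was not given for the counting, so reads from the overlap of Parp9 and Dtx3l cannot be assigned.

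The other 6 members had fitted values below 0. Ifi27l2a, a small protein strongly induced by interferon, had 1600 and 840 reads in spleen and 3113 and 2623 in lymph node Tregs, or 203 and 145 CPM and 761 and 575 CPM. Per kilobase of exon it had the highest mean level of the 39, at 909 CPM per kilobase, compared with 114 for Sp100 in the next place and 0.951 for Ifi44 in the last. Its ratios of 0.716 (0.658 to 0.779) and 0.756 (0.717 to 0.796) were nearly equal in the tissues, with a log2 fold change of -0.44 ± 0.18 (SE, edgeR adjusted p = 0.890, unadjusted p = 0.0344). It overlaps Ifi27l2b, and 27.9% of its reads were uniquely placed.

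Xaf1, a pro-apoptotic antagonist of the inhibitor protein Xiap, had 58.7 and 54.3 CPM in spleen and 147 and 77.6 CPM in lymph node Tregs. Its ratio was 0.527 (95% interval 0.461 to 0.602) in the lymph node and its log2 fold change -0.52 ± 0.28 (SE, edgeR adjusted p = 0.890). Sp100, a nuclear body protein, had 526 and 462 CPM and 1264 and 1180 CPM. Tap1, which pumps peptides for MHC class I and overlaps the proteasome gene Psmb9, had 534 and 572 CPM and 263 and 195 CPM. Ifi35 had 59.4 and 57.9 CPM and 191 and 138 CPM. Ifi44 had 12, 6, 56 and 32 reads, too few to separate the spleen libraries.

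**Figure D3:**
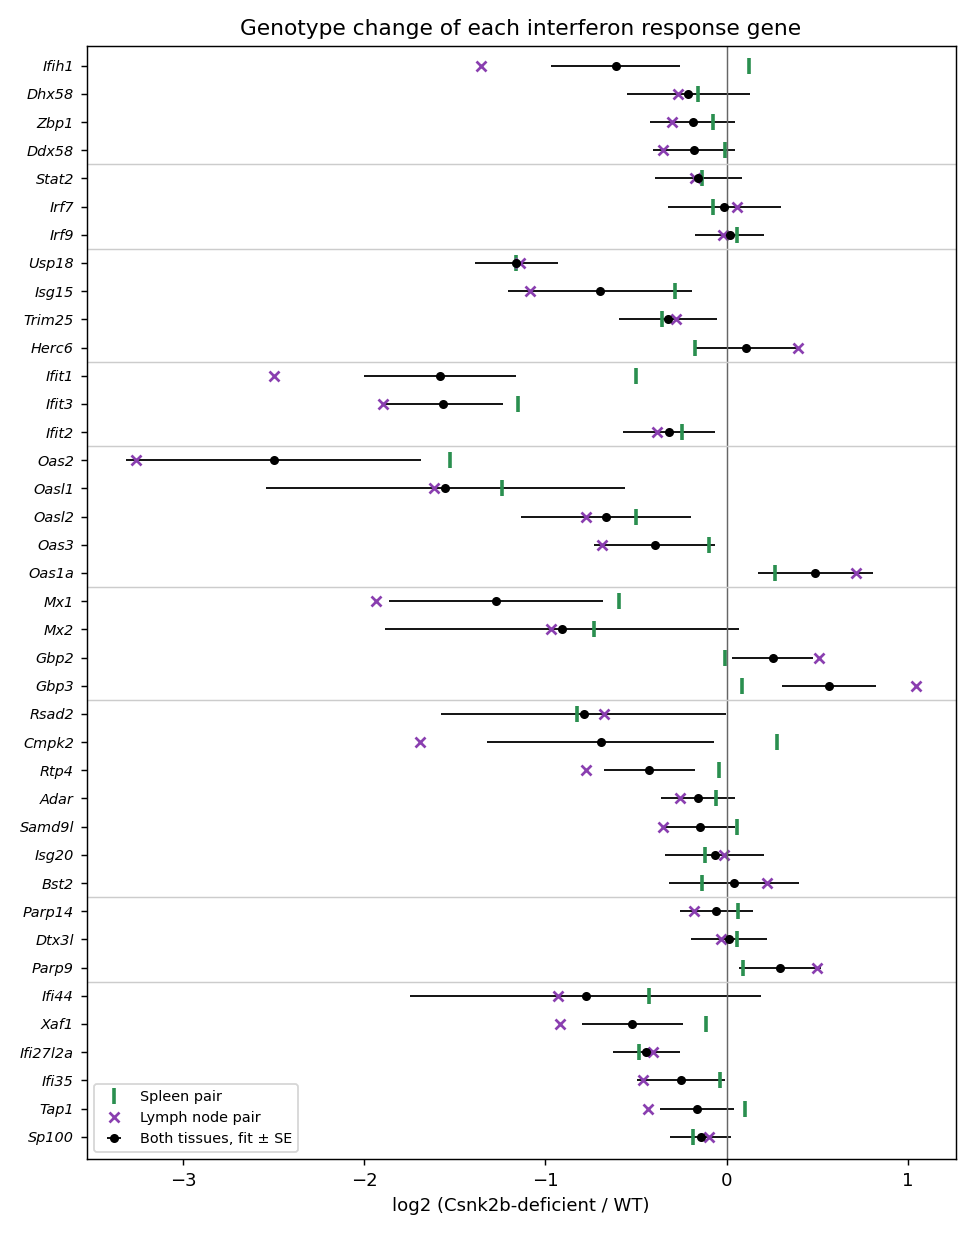
Genotype change of each of the 39 genes as log2 of Csnk2b-deficient over WT Tregs (x axis), with the edgeR fit over both tissues (black, ± SE) and the ratio in the spleen pair (green bar) and the lymph node pair (purple cross), grouped by role from sensors at the top. Usp18 has both pairs near -1.15, Oas2 lies lowest, and for Ifih1 and Cmpk2 the 2 pairs lie on opposite sides of 0.

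Genes upstream of the list were counted from lists of their own. Of 18 interferon genes listed, 17 had 0 reads in all 4 libraries and Ifnz had 1 read. A count of 0 allows up to 3 reads in each library, from counting error only. Of 9 receptor chains and kinases tested, 5 (55.6%) were lower and 2 (22.2%) higher in both pairs, compared with 29.2% and 27.7% of all genes. In this list 0 passed the edgeR test. Ifnar1 had 254 and 211 CPM in WT and Csnk2b-deficient spleen and 120 and 102 CPM in lymph node Tregs (log2 fold change -0.26 ± 0.21). Ifnar2 had 89.2 and 82.7 CPM and 66.5 and 34.2 CPM (-0.52 ± 0.30), with 27.3% of its reads uniquely placed. Both chains of the type I receptor were thus lower in the deficient library of each pair, each by less than 2 SE.

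The receptor of interferon gamma, a related cytokine, had chains with opposite values. Ifngr1 had 169 and 261 CPM in the spleen and 186 and 539 CPM in lymph node Tregs (log2 fold change 1.08 ± 0.24, edgeR adjusted p = 0.229). Ifngr2 had 32.5 and 22.5 CPM and 43.8 and 15.3 CPM (-1.01 ± 0.41, edgeR adjusted p = 0.890). Il10rb, a chain shared by the interferon lambda and interleukin-10 receptors, had 86.0 and 82.0 CPM and 94.8 and 166 CPM (0.37 ± 0.27, edgeR adjusted p = 0.891), and Il28ra, the other interferon lambda chain, had 0 reads in all 4 libraries. Of 14 adaptors, kinases and interferon regulatory factors tested, 2 (14.3%) were lower and 2 (14.3%) higher in both pairs. Over all genes these shares were 29.2% and 27.7%. Tlr7, the endosomal sensor of single-stranded RNA, had 173 and 26 reads in spleen and 186 and 32 in lymph node Tregs, or 21.9 and 4.50 CPM and 45.5 and 7.02 CPM (log2 fold change -2.49 ± 0.48, edgeR adjusted p = 0.126). It was the lowest of the upstream genes, with both WT libraries above both deficient ones. Of 9 negative regulators tested, 3 (33.3%) were lower and 4 (44.4%) higher in both pairs, with Socs1 at 0.10 ± 0.41 and Socs3 at 0.52 ± 0.25.

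A wider list of 73 tested interferon-induced genes outside the 39 had nearly equal counts in each direction. In both pairs 22 of them (30.1%) were lower and 21 (28.8%) were higher, close to the 29.2% and 27.7% of all genes, with a median log2 fold change of 0.019, and 0 passed the edgeR test. At an unadjusted p below 0.05, 1 gene, Epsti1, was lower (1.37%, compared with 2.2% of all genes; -0.66 ± 0.30) and 6 were higher (8.22%, compared with 2.67%). The 6 were the inflammatory caspase Casp4 (2.83 ± 0.85), Ifitm2 (1.23 ± 0.48), Tmem140 (0.98 ± 0.41), the immunity-related GTPase Iigp1 (0.80 ± 0.22), the MHC class I light chain B2m (0.55 ± 0.18) and Lgals3bp (0.54 ± 0.24). Only 17.8% of the B2m reads and 25.3% of the Tmem140 reads were uniquely placed. Many genes of the wider list also respond to interferon gamma, as Gbp2 and Gbp3 do.

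Levels also differed between the tissues. In the tissue term of the same edgeR fit, 16 members (41%) were higher in the lymph node at an adjusted p below 0.05, compared with 23.3% of all genes, and 6 (15.4%) were lower, compared with 22.2%. The largest values were log2 3.50 ± 0.24 for Usp18, 2.95 ± 1.01 for Ifi44, 2.92 ± 0.43 for Ifit1, 2.73 ± 0.27 for Rtp4 and 2.33 ± 0.34 for Ifit3. Tap1 (-1.29 ± 0.21), Irf7 (-1.0 ± 0.31), Trim25 (-0.96 ± 0.27), Stat2 (-0.89 ± 0.24), Parp14 (-0.76 ± 0.20) and Samd9l (-0.75 ± 0.20) were lower in the lymph node. Taking the protocol's sample numbers in listing order, RNA and library kits changed with the tissue, so tissue and kit cannot be told apart in these values.

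Intron reads, counted as gene reads less exon reads, gave a second readout from the same libraries. Introns held 17.8% of the members' reads in WT and 17.6% in Csnk2b-deficient spleen, and 8.09% and 9.71% in the lymph node, compared with 18.9% to 22.0% over all genes. Usp18 had 279 and 104 intron reads in spleen and 368 and 315 in lymph node Tregs. Its intron ratio was 0.508 (95% interval 0.402 to 0.639) in the spleen, close to the exon ratio of 0.441, and 0.768 (0.658 to 0.895) in the lymph node, where the exon ratio was 0.453. Intron reads of Oas2 in the spleen, 59 and 11, gave a ratio of 0.254 (0.120 to 0.489). Oas1a introns were higher in deficient Tregs, with ratios of 1.71 (1.40 to 2.10) and 2.22 (1.23 to 4.15), the same side as its exons.

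Introns and exons did not always take the same side. Ifih1 had an intron ratio of 1.17 (0.758 to 1.83) in the lymph node, where its exon ratio was 0.390. Herc6 had 265 and 129 intron reads in the lymph node, a ratio of 0.437 (0.351 to 0.541), where its exon ratio was 1.32. Of 27 members with at least 50 intron reads in the spleen pair, 15 were lower in introns and 19 in exons, and 17 took the same side. Of 20 such members in the lymph node pair, 10 were lower in introns and 15 in exons, and 13 took the same side. Ifit1 had 0 intron reads in every library. Reads from overlapping genes can fall in introns, and intervals here cover counting error only.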

How the data were processed

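Messenger RNA of 4 Treg libraries was sequenced on an Illumina MiSeq, per the labels. The submitters' processing notes name CASAVA 1.8.2 and the build mm9, while the sources used here give no aligner, annotation or use of strand. Per the file headers, the authors deposited counts of exon and gene reads, total and unique. The tested counts were total exon reads, multiply placed ones included. Levels per length were computed as CPM per kilobase of exon, in place of the deposited RPKM that had been planned, whose numbers use decimal commas.

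The edgeR 4.0.16 model (R 4.3.3) held tissue and genotype (filterByExpr by genotype, TMM, robust quasi-likelihood; prior degrees of freedom 10.1), with Benjamini-Hochberg adjustment over 11113 genes, a threshold of 0.05 and SEs from the F statistic (fold change in log2 divided by its root). All 39 members passed the filter. Pair ratios used a prior count of 2 and have no test. Same-numbered libraries share a tissue per the labels, and their deviations from the genotype means correlated at 0.783, so the tissue term is the pairing block. The fit was tested on simulated counts. DESeq2 1.42.0 and limma 3.58.1 were alternatives, with other scalings, filters and unique reads. Full statistics went to the 10 members with the smallest unadjusted p, which include all 5 below 0.05. In the fixed lists outside the 39, genes with an unadjusted p below 0.05 and the receptor chains were named; the remaining named genes there were chosen for their role after their values were seen. Members and lists were chosen with earlier results of these data known. Some items of the pathway and marker lists are not reported here.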

Additional observations from a re-analysis of the deposited data

Results flagged for a closer look

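For 11 members the genotype ratio had opposite signs in the 2 tissues, and the difference was not tested, since each tissue had 1 library per genotype. The log2 ratio in the lymph node less that in the spleen was -1.97 for Cmpk2 and -1.48 for Ifih1, both lower in Csnk2b-deficient lymph node Tregs and slightly higher in spleen Tregs. Tap1 (-0.53), Samd9l (-0.41), Parp14 (-0.25), Dtx3l (-0.093) and Irf9 (-0.077) had the same order. The reverse order, higher in the deficient lymph node library and lower in the spleen, was seen for Herc6 (0.57), Gbp2 (0.52), Bst2 (0.36) and Irf7 (0.13). Over all genes tested, 4786 of 11113 had opposite signs.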

How the results depend on the processing

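The count of members past an adjusted p of 0.05 was 0 in the edgeR fit and 3 with no filter except 0 reads, 2 with the DESeq2 Wald test and 3 with limma-voom, all lower; it was 0 with median-of-ratios size factors, upper-quartile scaling, unique reads and a 5 CPM filter. The cause was not tested. Calls over all genes were 16 in the edgeR fit, and 4, 11, 111, 11, 7, 54 and 64 with median-of-ratios factors, upper-quartile scaling, no filter, 5 CPM, unique reads, DESeq2 and limma-voom. Without the replicate block, 0 genes and 0 members were called, 1 member had an unadjusted p below 0.05 and the members' median was -0.33. The median ran from -0.38 in the lymph node pair alone to -0.12 in the spleen pair alone, and members lower in both pairs numbered 23 to 25 over all fits.

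Irf7 turned to 0.011 under upper-quartile scaling. With 1 pair left out, log2 values lay between -0.075 and 0.057 for Irf7, -0.020 and 0.057 for Irf9, -0.033 and 0.060 for Dtx3l, -1.35 and 0.13 for Ifih1, -0.14 and 0.23 for Bst2, -0.18 and 0.066 for Parp14, -0.0094 and 0.51 for Gbp2, -0.35 and 0.056 for Samd9l, -1.69 and 0.28 for Cmpk2, -0.18 and 0.40 for Herc6 and -0.43 and 0.10 for Tap1. On unique reads the members' intron shares were 18.4%, 18.1%, 8.59% and 10.6% in WT and Csnk2b-deficient spleen and lymph node. Each genotype and tissue had 1 library, so no difference between the tissues in genotype change could be tested, and members under about 100 reads carry wide intervals.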
